A study of Arabidopsis thaliana with 6 samples.

Results

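Calcium sensors and calcium-dependent kinases of Arabidopsis thaliana pollen tubes are described here through 8 genes, which are the kinase genes CPK10 and CPK34, the calcineurin B-like gene CBL2, the calmodulin-like genes CML42 and CML37, and the loci AT1G18530, AT1G05150 and AT5G24880. They are 8 of the 14186 loci that could be named among the 22746 probe sets of the array, and each is read by 1 probe set. All 8 are in the part of the study's supplementary gene table used here, in which the probe sets that changed most on these same arrays come first, so their differences between genotypes are not independent of how they were picked. The tested pollen tubes came from agp6 agp11, a homozygous Ds-tagged double null line of the ecotype Nossen that was made by crossing a pair of insertion lines, and the control tubes from wild type plants of the same ecotype. Tubes of both genotypes grew in culture from germinating pollen, kept in darkness for 8 h in a medium with calcium chloride and sucrose, and were held back on a nylon mesh. Each of the 3 preparations per genotype pooled pollen from many flowers and was hybridised to 1 Affymetrix ATH1 array. Signals are normalized intensities on a linear scale. In such bulk RNA, fewer cells of a kind and less RNA per cell cannot be told apart.

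Calcium enters the growing tip of a pollen tube and forms a steep gradient there that accompanies tip growth and the fusion of wall-carrying vesicles. Proteins with EF-hand loops bind the ion and pass the signal on. Calcium-dependent protein kinases (CPKs) carry the EF-hands and the kinase domain in the same chain. Calmodulins, calmodulin-like proteins (CMLs) and calcineurin B-like proteins (CBLs) have no enzyme activity of their own and act by binding partners, which for CBLs are the CBL-interacting protein kinases (CIPKs).

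AGP6 (AT5G14380) and AGP11 (AT3G01700), the disrupted genes, fitted the labels on every array, with signals of 15.1 to 31.1 and 32.5 to 40.4 in agp6 agp11, against 9597 to 13677 and 5604 to 10016 in wild type. Median signals of the 6 arrays ranged from 23.3 to 24.5. A gene is called detected in a genotype where 2 or more of its 3 signals exceed 40. All 4 named markers of the pollen vegetative cell were detected in both genotypes (mean signals of 1071 to 3241 in agp6 agp11 and 883 to 2729 in wild type), whereas the 1 named photosynthetic marker and the 2 named tapetum markers were not detected in either. Genotypes were compared by limma on log2 signals, with Benjamini-Hochberg adjusted p-values over all 22746 probe sets, and adjusted p-values under 0.05 passed. Since same-numbered arrays of both genotypes shared part of their deviation, a second fit took the replicate number as a blocking factor (the replicate block), and its adjusted p is added where a call changes with it.

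Both kinase genes had higher signals in agp6 agp11. CPK34 (AT5G19360), which together with its close relative CPK17 is known to be needed for normal pollen tube growth, had signals of 2439, 2235 and 1957 in agp6 agp11, against 949, 731 and 532 in wild type. The lowest agp6 agp11 array was thus more than double the highest wild type array, and in each genotype replicate 1 was the highest and replicate 3 the lowest. The means were 2211 ± 242 in agp6 agp11 and 738 ± 209 in wild type (SD, n = 3 each), a 3.07-fold rise with a log2 difference of 1.62 (standard error 0.28, 95% interval 0.98 to 2.25, adjusted p = 0.0120). Taken within replicate numbers 1, 2 and 3, the log2 differences were 1.36, 1.61 and 1.88. The call was lost without agp6 agp11 replicate 1 (adjusted p = 0.0784). The standard error was 0.16 in the fit that used the replicate block.

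CPK10 (AT1G18890, also named CDPK1), known from leaves for its part in the response of guard cells to drought, had signals of 50.6, 33.7 and 41.2 in agp6 agp11, against 10.4, 12.5 and 11.7 in wild type. No wild type array came near the detection minimum of 40, and the agp6 agp11 arrays lay close to it, with 2 of the 3 above. As measured, the log2 difference was 1.84 (standard error 0.19, adjusted p = 6.55e-04), but against the detection minimum the rise is only bounded as at least 1.03-fold. With a minimum of 30 in place of 40 all 3 agp6 agp11 arrays exceeded it, and with 60 none did. The call held when any single array was left out, with an adjusted p of 5.29e-04 to 0.00804.

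**Figure D1:**
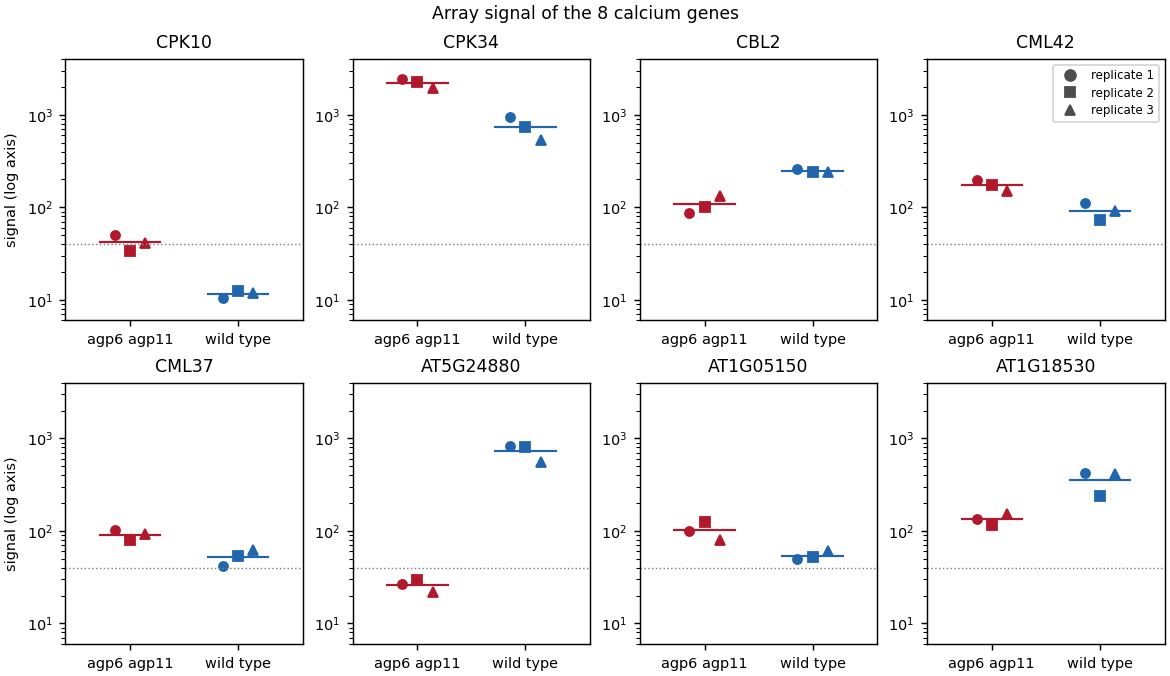
Normalized signal (log axis) of the 8 calcium genes on each of the 3 agp6 agp11 arrays (red) and the 3 wild type arrays (blue), with marker shape for the replicate number, a line at the mean and a dotted line at the signal of 40 used for detection. The genotypes do not overlap for any of the 8, and only CPK10 in wild type and AT5G24880 in agp6 agp11 lie below the dotted line on all arrays.

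Each pollen tube carries sperm cells, and the 4 named sperm genes had higher mean signals in agp6 agp11, but only HAP2 passed without the replicate block. MGH3 (AT1G19890) had an adjusted p of 0.241 (0.0244 with the block), DAZ1 (AT2G17180) 0.257 (0.0320) and DAZ3 (AT4G35700) 0.0637 (0.00224). The arrays of the genotypes overlapped for DAZ1. HAP2 (AT4G11720), the membrane fusion protein of sperm, had mean signals of 383 ± 121 in agp6 agp11 and 119 ± 20.7 in wild type (SD, n = 3 each, adjusted p = 0.0135), a call that was lost without agp6 agp11 replicate 1 or wild type replicate 1 or 2 (adjusted p = 0.0667, 0.0590 and 0.0634). Of the 4 named sperm genes, 1 passed the test and all 4 passed with the replicate block, with log2 differences of 0.68 to 1.65, against 5.85% of all named loci, and 12.3% with the block. HAP2, DAZ1 and DAZ3, 3 of these 4, were named only by the supplementary table that is led by the most changed probe sets, so nothing is read from this count. The 4 named vegetative cell markers also had log2 differences above 0, of 0.09 to 0.45, and none of them passed in either fit. The part of sperm cell content in the differences of the calcium genes was not tested.

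CBL2 was the only one of the 3 named calcineurin B-like genes that passed the test. All 3 were named only by the supplementary table that is led by the most changed probe sets, so nothing is read from this count. CBL2 (AT5G55990) encodes a sensor of the vacuolar membrane that recruits CIPKs there and, with CBL3, is known to act on the vacuolar proton pump. Its signals were 87.9, 102 and 134 in agp6 agp11, against 260, 238 and 241 in wild type. The wild type arrays were close together, with an SD of 4.93% of the mean, while replicate 3 stood above the other agp6 agp11 arrays. The means were 108 ± 23.6 in agp6 agp11 and 247 ± 12.2 in wild type (SD, n = 3 each), a 2.32-fold decrease with a log2 difference of -1.22 (standard error 0.24, adjusted p = 0.0231). The call was lost without agp6 agp11 replicate 1 or 2 or wild type replicate 1 or 2 (adjusted p = 0.119, 0.0777, 0.145 and 0.0709), and the replicate block gave 0.00290.

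The calmodulin-like genes CML42 and CML37 had higher signals in agp6 agp11 on every array, but neither passed the test without the replicate block. CML42 (AT4G20780), a sensor with a role in the branching of leaf hairs, had signals of 198, 176 and 149 in agp6 agp11, against 111, 72.6 and 90.7 in wild type. The log2 difference was 0.94 (standard error 0.25, adjusted p = 0.0792, and 0.00922 with the replicate block), or 1.92-fold as measured. CML37 (AT5G42380), which is known to be induced in leaves by wounding and drought, had signals of 102, 79.1 and 93.1 in agp6 agp11, against 41.5, 53.7 and 62.0 in wild type. Its log2 difference was 0.81 (95% interval 0.31 to 1.32, adjusted p = 0.0987, and 0.0298 with the replicate block). Replicate 1 was the highest array of agp6 agp11 and the lowest of wild type, so that the log2 difference was larger within replicate 1 than within replicates 2 and 3, where it was 0.56 and 0.59. All wild type signals of CML37 lay between 40 and 62, and with a detection minimum of 60 the gene would count as detected in agp6 agp11 alone.

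AT1G05150, annotated in the study as a calcium-binding protein with tetratricopeptide repeats, had signals of 99.8, 125 and 80.0 in agp6 agp11, against 49.4, 52.7 and 60.2 in wild type. The spread was wider in agp6 agp11, with an SD of 22.1% of the mean against 10.2% in wild type. With a detection minimum of 60 this gene, too, would count as detected in agp6 agp11 alone. The log2 difference of 0.89 (95% interval 0.38 to 1.40) did not pass the test (adjusted p = 0.0748, and 0.0209 with the replicate block), and it passed without agp6 agp11 replicate 3 (adjusted p = 0.0399).

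AT1G18530, an EF-hand protein gene with no symbol in the tables used, fell. Its signals were 135, 115 and 151 in agp6 agp11, against 427, 240 and 409 in wild type. Replicate 2 was the lowest array of both genotypes, and even there wild type was about double agp6 agp11, with a log2 difference of -1.06 within that number. The means were 134 ± 17.8 in agp6 agp11 and 359 ± 103 in wild type (SD, n = 3 each), a 2.62-fold decrease (log2 difference -1.39, standard error 0.29, adjusted p = 0.0277). The call was lost without agp6 agp11 replicate 1 or 2 or wild type replicate 1 or 3 (adjusted p = 0.118, 0.0973, 0.170 and 0.0699), and the replicate block gave 0.00105.

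AT5G24880, counted among the calmodulins in the study's text and without a symbol in the tables used, had the largest difference of the 8. Its signals were 26.6, 29.5 and 21.6 in agp6 agp11, against 829, 817 and 551 in wild type. The agp6 agp11 signals were all below 30, the lower of the other detection minima tried, and the wild type signals were all far above 60, the higher one. The log2 difference was -4.81 as measured (standard error 0.26, 95% interval -5.38 to -4.24, adjusted p = 1.29e-05). With the agp6 agp11 signals set to 40, the signal was at least 18.0-fold lower in agp6 agp11. No single array decided the call, whose adjusted p was at most 4.71e-04 with 1 array left out.

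**Figure D2:**
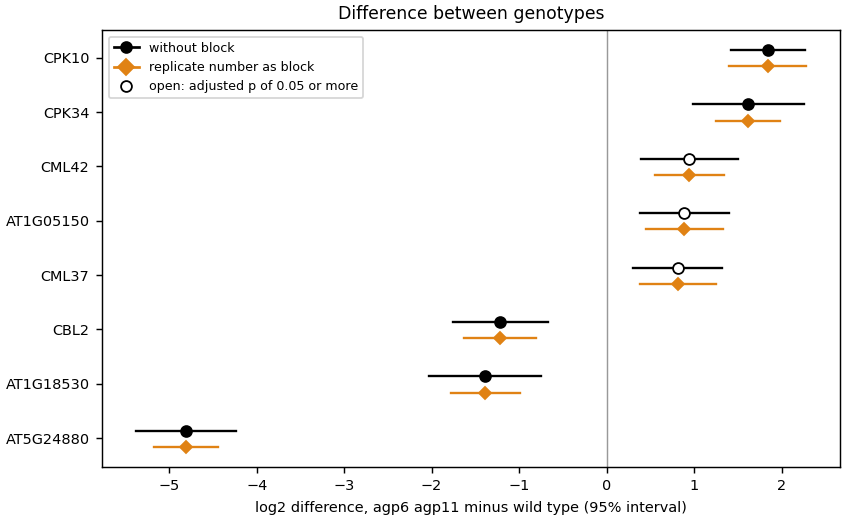
Log2 difference of the 8 genes, agp6 agp11 minus wild type, with 95% intervals from limma without a block (black) and with the replicate number as a block (orange); open symbols did not pass an adjusted p of 0.05. CPK10 and CPK34 lie above 1.6, CML42, AT1G05150 and CML37 between 0.8 and 1, and AT5G24880 lies far below the other genes that fell.

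Of the 8 genes, 2 rose (CPK10 and CPK34), 3 fell (AT5G24880, AT1G18530 and CBL2) and 3 did not pass. Over all probe sets 3.68% passed, 2.01% as higher and 1.67% as lower. The replicate block added CML42, CML37 and AT1G05150 to the genes that rose, which made 5 higher and 3 lower. In that fit 8.34% of all probe sets passed, 5.03% as higher and 3.31% as lower. No signal of agp6 agp11 fell within the wild type range for any of the 8, and such a separation was found for 20.0% of all probe sets. The 90% lower bound of the fold change, computed from the spread between arrays, exceeded 1.3 for all 8 and for 6.46% of all probe sets. Since the genes came from a table led by the most changed probe sets, nothing is read from their counts against these shares. CPK10 and AT5G24880 kept their calls without any 1 array, and both were below the detection minimum in 1 genotype, so that these are also the genes whose fold change is known only as a bound. The other 6 were detected in both genotypes, and their differences lay within 3.07-fold.

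The families of these genes were examined through lists written from general knowledge, which hold 158 loci. Only 48 of them could be named on the array, and 6 of the 8 genes are among these. Of the 42 others, 2 rose, 1 fell and 39 did not pass, and 18 were detected in at least 1 genotype. This makes 7.14% called, and 5.85% of all named loci were called, 3.21% as higher and 2.64% as lower. With the replicate block 6 rose and 1 fell, which makes 16.7%, against 12.3% of all named loci. Of the 42, 8 were named only by the study's supplementary table, and among the remaining 34 just 1 was called, or 2.94%, against 3.69% of all loci named by the platform table. The median log2 difference of the 42 was 0.09, and that of all named loci was 0.05.

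Of 34 CPK genes only CPK10 and CPK34 could be named, so nothing can be said of CPK17 or the other kinases of the family. Of 10 CBL genes 3 could be named. All of these CPK and CBL genes were named only by the study's supplementary table, so nothing is read from their counts. CBL9 (AT5G47100) had signals of 201, 189 and 179 in agp6 agp11, against 125, 134 and 136 in wild type, a log2 difference of 0.52 that did not pass (adjusted p = 0.308, and 0.0890 with the replicate block). CBL10 (AT4G33000) was below 40 on all arrays. CBL2 fell while CBL9, measured by a probe set of its own, had higher signals on every agp6 agp11 array, although the difference between these genes was not tested.

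Among the kinases that CBLs bind, CIPK13 (AT2G34180) rose, with signals of 292, 246 and 277 in agp6 agp11, against 103, 78.4 and 144 in wild type. The 2.58-fold rise (adjusted p = 0.0234) was lost without agp6 agp11 replicate 1 or 2 or wild type replicate 1 or 2 (adjusted p = 0.0535 to 0.138). CIPK5 (AT5G10930) was below 40 on all arrays and did not pass (adjusted p = 0.0825, and 0.0229 with the replicate block). Both CIPK genes were named only by the study's supplementary table.

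Calmodulins and CMLs were the best covered family, with 36 of 57 genes named and 16 detected in at least 1 genotype. AT1G18530 and AT2G41410 fell and 34 did not pass, with a median log2 difference of -0.02. This is 5.56% of the family, beside 5.85% of all named loci. The platform table names all 36, and 3.69% of the loci it names passed. Nothing is read from so few calls. With the replicate block 3 passed as higher (CML42, CML37 and AT1G73630, the last with an adjusted p of 0.0285, against 0.473 without the block) and the same 2 as lower. This makes 13.9%, beside 12.3% of all named loci, a share that also counts loci named only by the study's supplementary table. The EF-hand gene AT2G41410 had signals of 47.0, 40.2 and 31.5 in agp6 agp11, against 76.9, 86.8 and 68.7 in wild type (adjusted p = 0.0380), and leaving out any single array ended its call (adjusted p = 0.0529 to 0.171). The EF-hand genes with high signals did not pass. AT3G03430 had mean signals of 5544 ± 1254 in agp6 agp11 and 6505 ± 2038 in wild type (SD, n = 3 each, adjusted p = 0.826), and its log2 difference was -0.21. AT4G03290 had 1847 ± 655 in agp6 agp11 and 2372 ± 1082 in wild type (adjusted p = 0.836), with replicate 3 the lowest array of both genotypes. AT1G12310 had 1185 ± 134 in agp6 agp11 and 904 ± 26.2 in wild type (adjusted p = 0.541).

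Of 24 genes for calcium channels, pumps and exchangers 5 could be named, and ACA8 (AT5G57110), a calcium pump of the plasma membrane, rose. ACA8 was among the 4 of these 5 that were named only by the study's supplementary table. Its signals were 295, 185 and 141 in agp6 agp11, against 85.0, 84.9 and 74.8 in wild type, a 2.42-fold rise (adjusted p = 0.0430). The call was lost with median centring of the arrays (adjusted p = 0.0551), with an offset of 32 before the log2 (0.0580) and without any array other than agp6 agp11 replicate 3 (0.0973 to 0.176). ACA11 (AT3G57330), a calcium pump of the vacuole, had signals of 344, 337 and 189 in agp6 agp11, against 162, 193 and 82.3 in wild type (adjusted p = 0.234, and 0.00420 with the replicate block). Replicate 3 was the lowest array of ACA11 in both genotypes. The vacuolar channel gene TPC1 (AT4G03560) had means of 77.8 ± 2.53 in agp6 agp11 and 56.8 ± 10.9 in wild type (SD, n = 3 each, adjusted p = 0.363). The exchanger gene CAX3 (AT3G51860) was below 40 on all arrays and passed with the replicate block alone (adjusted p = 0.132, and 0.0413 with it). None of the 7 listed genes of tip growth machinery linked to calcium could be named.

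**Figure D3:**
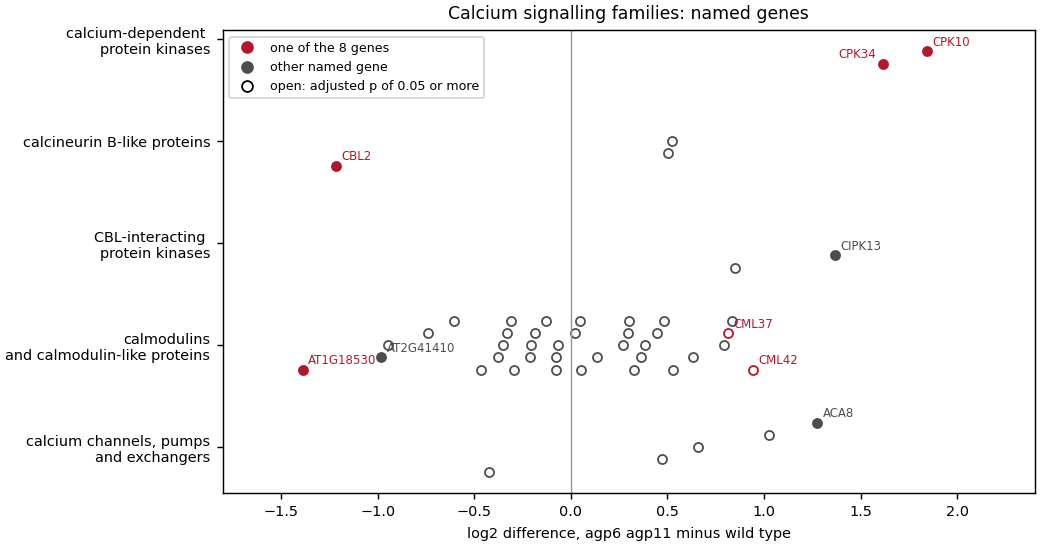
Log2 difference, agp6 agp11 minus wild type, of every named gene in 5 calcium signalling families, with 1 point per gene, red for the 8 genes and grey for others; filled points passed an adjusted p of 0.05 and vertical offsets only separate the points. Most calmodulin-like genes lie between -0.5 and 0.5, while CPK10, CPK34, CIPK13 and ACA8 lie to the right. Those genes on the right were named only by the study's supplementary table, which is led by the most changed probe sets. No calmodulin or calmodulin-like gene was named by it alone, so nothing is read from this contrast.

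Of the 8 genes, AT5G24880 does not stand in the calcium class of the study's own table and is tied to calcium by the study's text alone. A further 7 genes stand beside the others in that class, which was drawn from the same arrays, so their directions are no independent evidence. Of these genes 1 rose, 3 fell and 3 did not pass, beside 5.85% called among all named loci, a share from which nothing is read here. With the replicate block 2 were higher, 4 lower and 1 not called, beside 12.3% of named loci, as IQD27 (AT1G51960, adjusted p = 0.108, and 0.0192 with the block) and AT4G34150 (0.173, and 0.0149 with the block) passed. BAG7 (AT5G62390), a co-chaperone gene, rose but had no signal above 40 on any array, with means of 33.4 ± 4.23 in agp6 agp11 and 17.0 ± 0.834 in wild type (SD, n = 3 each, adjusted p = 0.00970, and 0.0723 without wild type replicate 1). AT1G62480 fell, with signals of 34.8, 26.8 and 28.9 in agp6 agp11, against 55.0, 75.4 and 57.7 in wild type (adjusted p = 0.0210, and 0.0546 to 0.0860 without agp6 agp11 replicate 1 or 2 or wild type replicate 1 or 2). IQD9 (AT2G33990) also fell, but only 1 of its 6 signals was above 40, and AT2G41410 was described among the calmodulin-like genes. The call of IQD9 (adjusted p = 0.0218) was lost with an offset of 32 (0.0554) and without agp6 agp11 replicate 1 or 2 or wild type replicate 1 (0.118, 0.0846 and 0.104).

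The protein-coding genes next to the 8 on the chromosomes were read as well, up to 3 on each side. Of 48 such neighbours 28 could be named, and 3 passed the test, all as higher in agp6 agp11. This is 3 of 28, where 5.85% of all named loci passed. With the replicate block 5 passed, against 12.3% of all named loci. The neighbour directly after CML42, the leucine-rich repeat kinase gene AT4G20790, rose, with signals of 84.7, 55.4 and 32.8 in agp6 agp11, against 16.2, 23.4 and 13.96 in wild type (adjusted p = 0.0262). This call was lost with an offset of 32 (adjusted p = 0.0540) and without agp6 agp11 replicate 1 or 2 or wild type replicate 1 or 3 (0.0837 to 0.132). The third gene before CPK10 is ICS2 (AT1G18870), for an isochorismate synthase, which had signals of 472, 249 and 414 in agp6 agp11, against 20.4, 18.9 and 20.8 in wild type. Near AT5G24880, whose signal fell, the third gene before it went the opposite way. FPF1 (AT5G24860), a flowering promoting factor gene, had signals of 104, 63.1 and 126 in agp6 agp11, against 25.7, 18.2 and 33.7 in wild type (adjusted p = 0.00808, and 0.0560 without agp6 agp11 replicate 1). AT5G24870, between FPF1 and AT5G24880, had signals of 1059, 734 and 798 in agp6 agp11, against 523, 487 and 482 in wild type (adjusted p = 0.169, and 0.0167 with the replicate block). ICS2 and FPF1 were named only by the study's supplementary table, and 1 of the 26 neighbours that the platform table names passed. The third gene after CPK10, AT1G18940, had signals of 199, 129 and 108 in agp6 agp11, against 81.1, 76.6 and 83.9 in wild type (adjusted p = 0.174 without and 0.0377 with the replicate block). The named neighbours of CPK34, CBL2, CML37, AT1G05150 and AT1G18530 did not pass in either fit. Only 13 of the 28 named neighbours were detected in at least 1 genotype, and no named neighbour of CPK34 was among them.

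**Figure D4:**
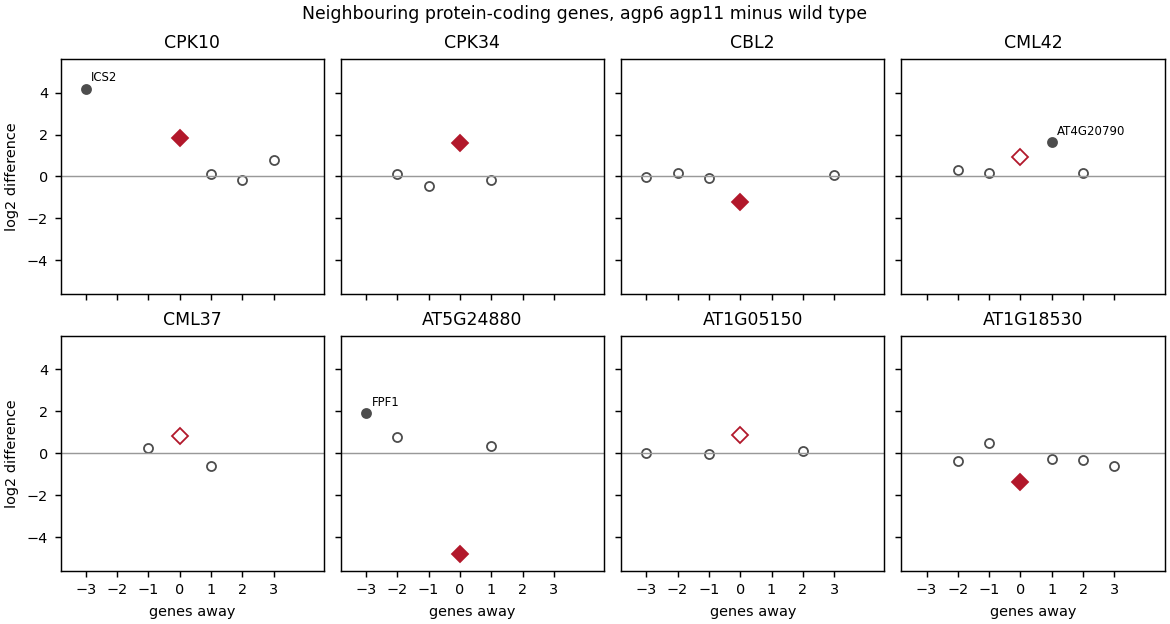
Log2 difference, agp6 agp11 minus wild type, of each of the 8 genes (red diamonds at 0) and of the named protein-coding genes up to 3 places before and after it (grey circles), by gene order; filled symbols passed an adjusted p of 0.05. ICS2, AT4G20790 and FPF1 are the 3 neighbours that passed, and the neighbours of CBL2 lie close to 0.

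Genes with the most similar course over the 6 arrays were found by Pearson's correlation of log2 signals among the 4651 named loci detected in at least 1 genotype. Both genotypes enter with 3 arrays each, so a shared difference between genotypes alone gives a high value. AGP11 and AGP6, the disrupted genes, were the closest to AT5G24880, at r = 0.999 each over the 6 arrays. CPK34 was closest to AT3G26950 (r = 0.999) and the beta glucosidase gene BGLU36 (AT1G51490, r = 0.998), which had mean signals of 2970.3 in agp6 agp11 and 398 in wild type. CPK10 was closest to AT5G17820 (r = 0.998), which had means of 86.9 in agp6 agp11 and 17.4 in wild type. CBL2 was closest to AT3G01520 (r = 0.993, means of 97.8 in agp6 agp11 and 345 in wild type) and to the glutaredoxin gene GRXC2 (AT5G40370, r = 0.991). AT1G18530 was closest to RNR2A (AT3G23580, r = 0.991), for a ribonucleotide reductase subunit, and to the sucrose transporter gene SUC7 (AT1G66570, r = 0.989). The closest loci to CML42, CML37 and AT1G05150 were PLP3a (AT3G50960, r = 0.994), AT3G18170 (r = 0.991) and HOG1 (AT4G13940, r = 0.993). None of the 8 genes was among the 3 closest loci of another.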

How the data were processed

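The authors hybridised RNA of 6 pollen tube preparations to ATH1 arrays, normalized the arrays by the invariant set method of dChip 2010 and deposited linear-scale intensities of a model that leaves out the mismatch probes. No earlier step was repeated. Probe sets were named by a platform table (1 gene for 13484, several for 503) and by 1995 rows of the study's supplementary table, of which only the names were used, and a locus was read by its brightest probe set. The sources differed for 26 probe sets, for which the study's name was kept. RefSeq (TAIR10.1) gave symbols and gene order, and no coordinates are given because the build of the array annotation is not given in the sources used here. Signals were raised to at least 1, taken as log2 and tested by lmFit and eBayes with intensity trend (limma 3.58.1, R 4.3.3). This step was tried on simulated data with independent noise, which lacked the deviation shared by same-numbered arrays. Genes were named by a fixed rule, which takes the 8 loci, list genes that passed, up to 3 bright genes per list and the 3 most similar loci. Of the 3 most similar loci of each gene, only the closest 1 or 2 are printed. Members and lists were chosen with earlier results of these data known, and the neighbours were added later. Deviations from genotype means correlated at 0.239, 0.347 and 0.379 between arrays numbered 1, 2 and 3 in the labels and at most 0.0711 otherwise. The same-number values exceed the limit of 0.1 set for pairs. The fit without the block stayed the main one, and the replicate block is given beside the results it changes. The number of arrays limits the precision. Python 3.11.15 was used for other steps.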

Additional observations from a re-analysis of the deposited data

How the results depend on the processing

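Quantile normalization, median centring and an offset of 32 changed no call of the 8 genes, and no alternative turned the direction of any of them. With the replicate block, 1897 probe sets, all 8 genes (5 higher) and 7 of the 42 other family genes passed, and with array weights 2019, 8 (5 higher) and 6. The criterion of the methods was a fold change whose 90% lower limit exceeds 1.3. It rests on probe-level errors that the deposited values lack, so a bound from the spread between arrays stood in for it. That bound passed 1469 probe sets, 8 genes (5 higher) and 5 family genes. When probe sets with a mean signal under 40 were left out, 4 of the genes were higher, with CML42, CML37 and AT1G05150 newly called (adjusted p = 0.0384, 0.0469 and 0.0349) and CPK10 not tested. Without the intensity trend CML42 passed (adjusted p = 0.0480). With 1 array left out, 372 to 871 probe sets passed, and 2 to 6 of the 8 genes, with 1 to 3 higher and 1 to 3 lower. Of the 42 family genes 0 to 4 passed. The fewest probe sets passed without wild type replicate 1 and the fewest of the 8 genes without agp6 agp11 replicate 1. The causes were not tested, and fewer arrays also give less power. Each gene has 1 probe set, so other probe sets could not be compared. CPK10 in wild type and AT5G24880 in agp6 agp11 had no signal above 40, so their fold changes are bounds.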
